A study of Capra hircus with 8 samples.

Results

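The skin of goats was compared between month 9 and month 3 in 2 breeds, cashmere goats, kept for their fine undercoat, and milk goats. The comparison rests on 4 of the 8 RNA sequencing libraries of the series, chosen by their labels: 1 library of cashmere goat skin and 1 of milk goat skin at month 9, and 1 of each at month 3. The other 4 libraries are of the same breeds at months 6 and 12. No strain, treatment or sex is given in the labels, and all groups are untreated skin as far as the labels say. It is not settled whether months of life or of the year are meant, because the month appears under age in the sample labels and as month in the design, and the library protocol mentions embryos although the tissue is given as skin. The number of animals behind each library is not given either. With 1 library per breed and month there are no replicates. The only spread that the libraries offer for a gene is therefore the disagreement between the 2 breeds' courses over the months. The tests also borrow from the spread of other genes, as given below. Breed was used as the pairing term, and the question was which genes moved the same way in both breeds.

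Hair follicles pass through growth (anagen), regression (catagen) and rest (telogen). In growth, dividing cells of the hair matrix, which surround the dermal papilla, give rise to the hair shaft and to the inner root sheath that molds it. Shaft cells fill first with hair keratins and then with keratin-associated proteins, small cysteine-rich or glycine-tyrosine-rich proteins that crosslink the keratin filaments, while trichohyalin hardens the inner root sheath. Cashmere goats are known for a seasonal growth of their undercoat.

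Library totals were 7731607 and 8718429 reads in the cashmere goats at months 3 and 9, and 11333734 and 13899750 in the milk goats. Levels are given as CPM, reads per 1000000 after scaling with TMM factors, and ratios as log2 ratios of month 9 to month 3 with a prior count of 2. A floor of 3 reads corresponds to 0.231 to 0.395 CPM, and floors and read intervals cover counting error only, since amplified reads lack molecular identifiers and may repeat a molecule. The libraries carried the skin markers KRT5, KRT14, KRT1, KRT10, COL1A1 and COL1A2, none of which was below 1072 CPM in the 4 libraries. Trichohyalin, TCHH, alone took 0.946% to 13.0% of all reads in these 4 libraries, and the TMM factor of the milk goat library of month 9 was 0.783 against 1.002 to 1.131 in the other 3. Without TMM factors, the median ratio over all genes was -0.16 in cashmere goats and -0.47 in milk goats, against 0.01 and -0.01 with them.

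Of 14085 genes tested, 453 were at least 2-fold higher at month 9 in both breeds (3.22% of genes) and 345 were at least 2-fold lower in both (2.45%). With library totals in place of TMM factors, the counts were 296 higher and 771 lower, so the balance of directions depends on the scaling. Ranked by the smaller of the breeds' ratios, the first 5 named genes of the higher group were KRTAP15-1 and KAP8, which encode keratin-associated proteins, LCN2, an innate defence protein, TCHHL1, a relative of trichohyalin, and KRT38, a hair shaft keratin. The lower group included CHGA, a protein of neuroendocrine secretory granules, and FOXI3, a transcription factor of hair and tooth buds. Opposite ratios of at least 2-fold were seen for 38 genes, 24 higher in cashmere goats and lower in milk goats, and 14 the other way round. The ratios of the breeds correlated across genes with Pearson's r of 0.62 and Spearman's rho of 0.59, a description only, since genes are not independent and all of them come from the same 4 libraries.

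**Figure D1:**
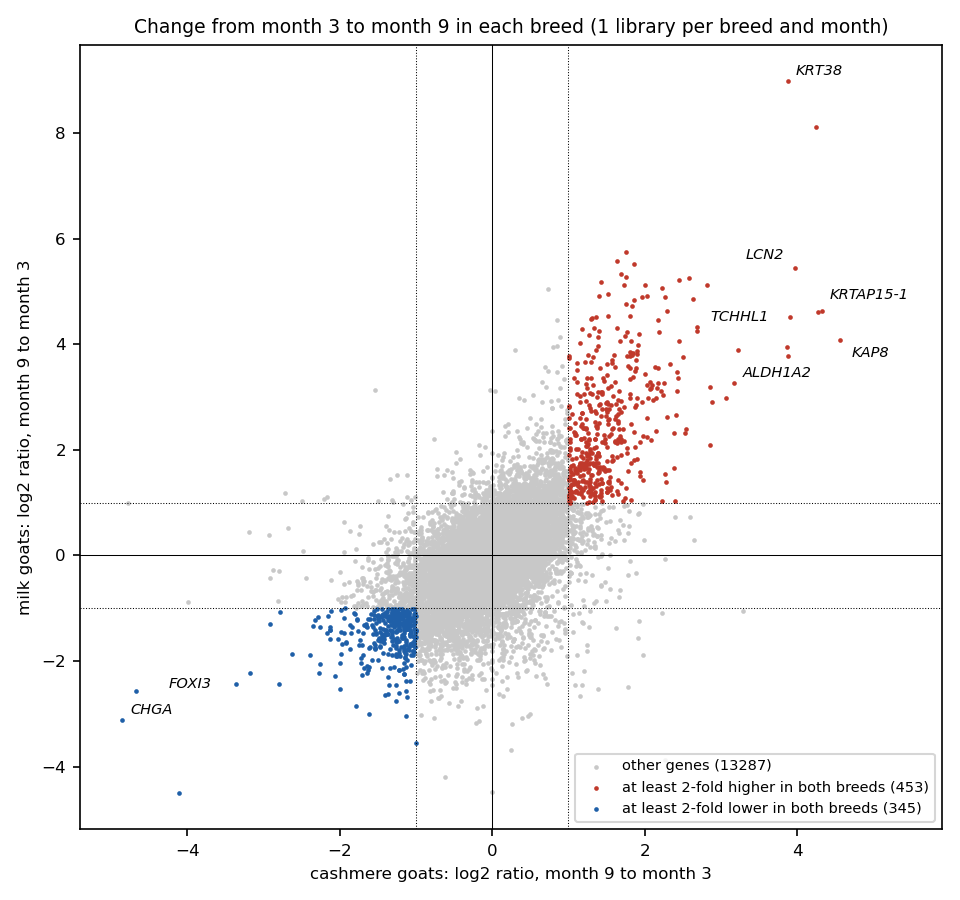
Each point is 1 of 14085 genes, with the log2 ratio of month 9 to month 3 in cashmere goats on the x axis and in milk goats on the y axis, 1 library per breed and month. Red points are the 453 genes at least 2-fold higher in both breeds and blue points the 345 at least 2-fold lower in both; dotted lines mark 2-fold.

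The test of month 9 against month 3 depended on which libraries gave the estimate of spread. In edgeR's quasi-likelihood fit of month and breed over all 8 libraries, 0 genes were higher and 0 lower at a Benjamini-Hochberg adjusted p under 0.05 (0% in each direction); the smallest adjusted p was 0.108, and 3329 genes had an unadjusted p under 0.05. DESeq2 in the same model called 638 higher and 469 lower. With the 4 libraries of months 9 and 3 alone, which leave 1 residual degree of freedom, edgeR called 792 genes higher (5.62%) and 668 lower (4.74%). Without both libraries of month 12, a fit chosen after seeing the data, it called 1127 higher and 915 lower, of which 1370 were among the 1460 of the 4-library fit. Leaving out only the cashmere goat library of month 12 gave 1112 higher and 926 lower genes, and leaving out only that of the milk goats gave 1128 and 919. The words higher and lower below therefore describe ratios, and the calls given beside them are those of the 4-library fit, which uses the same 4 libraries as the ratios. In that fit, each gene's spread had 8.99 prior degrees of freedom, drawn from other genes, beside the 1 residual. Over 8 libraries it had 4.40 prior beside 3 residual. The edgeR p-values and SE of a gene therefore rest largely on the spread of other genes.

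The keratin-associated protein KRTAP15-1 stood at 8.47 CPM at month 3 and 173 CPM at month 9 in cashmere goats, and at 2.20 and 58.9 CPM in milk goats. Both month 9 libraries lay above both month 3 libraries, with differences of 20.01-fold and 24.7-fold. Its log2 fold change was 4.63 ± 0.92 (SE) over 8 libraries with an edgeR adjusted p of 0.108, and 4.52 ± 0.25 over 4 libraries with an adjusted p of 8.69e-05; over all 22 alternatives the adjusted p ran from 8.26e-34 to 0.565. KAP8, another keratin-associated protein, stood at 33.4 and 791 CPM in cashmere goats and at 7.49 and 129 CPM in milk goats. Its month 9 levels were 23.5-fold and 16.8-fold higher. By the gene order of RefSeq's goat assembly ARS1.2, all 6 tested genes among the 5 neighbours on either side of KAP8 were at least 2-fold higher in both breeds, and so were all 6 around KRTAP15-1; the 2 neighbourhoods share members. Keratin-associated proteins are a family of similar copies, between which the authors' counting could split reads.

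In the first table, all 4 tested keratin-associated protein genes and 7 of 8 hair shaft keratins were at least 2-fold higher in both breeds. The 4-library fit called the same numbers higher. Of all genes, 3.22% were at least 2-fold higher in both breeds and 5.62% were called higher. The medians of the shaft keratins were 1.39 in cashmere goats and 3.16 in milk goats on the log2 scale. KRTAP11-1 was at 443 and 1653 CPM in cashmere goats and at 39.6 and 582 CPM in milk goats, and KRTAP3-1 at 286 and 1148 CPM and at 20.9 and 733 CPM. The type I keratins KRT35 and KRT39 showed the same order: KRT35 was at 352 and 883 CPM in cashmere goats and at 75.8 and 710 CPM in milk goats. KRT39 was at 83.1 and 210.1 CPM and at 8.88 and 179 CPM. KRT38 had 14 and 229 reads in cashmere goats at months 3 and 9, and 2 and 1980 reads in milk goats. In milk goats, the 95% counting interval of its log2 ratio was 8.27 to 13.2. These differences were 14.7-fold and 505-fold, while the second count table, described below, gave 3.16-fold and 112-fold for keratin 38. In cashmere goats KRT38 was at 159 CPM at month 6, above the 26.2 CPM of month 9. For KRT35, KRT39, KRTAP11-1 and KRTAP3-1, the milk goat library was the lower one at month 3 and its ratio the larger one.

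The second count table of the series lists more of these genes by product name and was counted from the same libraries, so it is no independent replicate. In it, 27 of 27 tested keratin-associated proteins were at least 2-fold higher at month 9 in both breeds (2.73% of its genes were), and 27 were called higher in the 4-library fit (6.91% of its genes), against 0 in the 8-library fit (0%). The median difference in cashmere goats was 4.16-fold, and the one in milk goats 15.4-fold. Together they took 0.565% of the reads of cashmere goats at month 3 and 2.12% at month 9, and in milk goats 0.0436% and 0.872%. The 3 with the largest smaller ratio were keratin-associated proteins 15-1-like, 6-1 and 7-1-like. In cashmere goats their log2 ratios were 4.35, 3.96 and 4.71, while the other 24 lay between 1.33 and 2.47; in milk goats theirs were 5.27, 4.62 and 3.84 and lay within the range of the others, 2.55 to 5.53. KRTAP6-1 was at 62.1 and 969 CPM in cashmere goats and at 12.4 and 307 CPM in milk goats. Of 17 hair shaft keratins, 15 were at least 2-fold higher in both breeds, with medians of 1.37 and 3.71, and their share of reads was 1.53% and 3.40% in cashmere goats and 0.187% and 2.27% in milk goats.

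**Figure D2:**
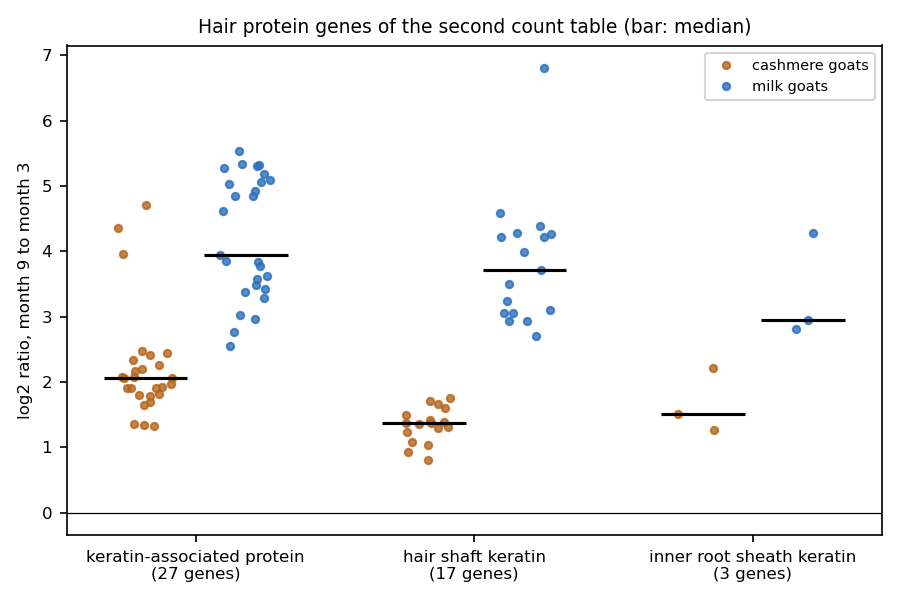
Log2 ratio of month 9 to month 3 (y axis) for the 27 keratin-associated protein, 17 hair shaft keratin and 3 inner root sheath keratin genes of the second count table, by breed; each point is a gene and the bar the median. All 47 genes have ratios above 0 in both breeds, and 3 keratin-associated proteins stand apart in cashmere goats.

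Inner root sheath genes were higher at month 9 as well. Of 10 tested, 9 were at least 2-fold higher in both breeds (3.22% of all genes) and 8 were called higher in the 4-library fit (5.62%). Their medians were 1.37 and 3.01. TCHHL1 was at 79.2 and 1189 CPM in cashmere goats and at 175 and 3991 CPM in milk goats, which was 14.98-fold and 22.8-fold. Its 4-library adjusted p from edgeR was 0.00204, with a range of 4.64e-40 to 0.687 over the alternatives. KRT26, a keratin of the inner root sheath, was at 91.1 and 417 CPM and at 37.4 and 705 CPM. S100A3, a calcium-binding protein of the hair cuticle, was at 41.9 and 121 CPM in cashmere goats and at 10.8 and 98.5 CPM in milk goats. PADI3 and TGM3, enzymes that modify and crosslink trichohyalin, had log2 ratios of 1.24 and 3.17, and of 1.35 and 2.52. TCHH itself, with ratios of 1.40 and 4.25, was not called in the 4-library fit (edgeR adjusted p = 0.11).

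Regulators of the hair matrix mostly went with the hair proteins. Of 30 tested, 11 were at least 2-fold higher and 1 at least 2-fold lower in both breeds (3.22% and 2.45% of all genes). The 4-library fit called 15 higher and 1 lower (5.62% and 4.74% of all genes). The medians were 0.77 and 1.18. SHH, the hedgehog ligand of the growing matrix, was at 3.44 and 14.1 CPM in cashmere goats and at 6.76 and 18.5 CPM in milk goats. Both month 9 libraries lay above both month 3 libraries. FOXN1, the factor missing in nude mice, was at 143 and 391 CPM and at 38.5 and 396 CPM. HOXC13, a factor that controls hair keratin genes, had ratios of 1.36 and 2.45, and DLX3 of 1.44 and 2.77. MSX1 and MSX2, homeobox factors of the matrix, had ratios of 1.58 and 2.42, and of 1.24 and 2.15. LEF1, the Wnt-dependent factor of the precortex, had ratios of 0.90 and 2.06 and so did not reach 2-fold in cashmere goats, although the 4-library fit called it. DSG4, the desmosomal cadherin of the shaft, was at 115 and 272 CPM and at 22.2 and 229 CPM. The 1 lower gene among them was FOXI3.

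Cell division genes were higher in both breeds without exception among the 31 tested (35.8% of all genes were higher in both by any amount). At least 2-fold was reached in both breeds by 12 of them (3.22% of all genes), and 18 were called higher in the 4-library fit (5.62%). Their medians were 0.89 and 1.22, and their summed level was 846 CPM at month 3 and 1533 CPM at month 9 in cashmere goats, and 835 and 2077 CPM in milk goats. CENPE, a kinetochore motor, was at 12.4 and 39.4 CPM in cashmere goats and at 32.9 and 88.5 CPM in milk goats. TOP2A, the topoisomerase of dividing cells, was at 93.7 and 228 CPM and at 114 and 408 CPM. The replication licensing genes MCM2 to MCM7 had smaller ratios than these, at most 0.39 in cashmere goats and 1.10 in milk goats. The same caution holds for this and every list below: in bulk skin, more cells of a type and more RNA per cell cannot be told apart.

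**Figure D3:**
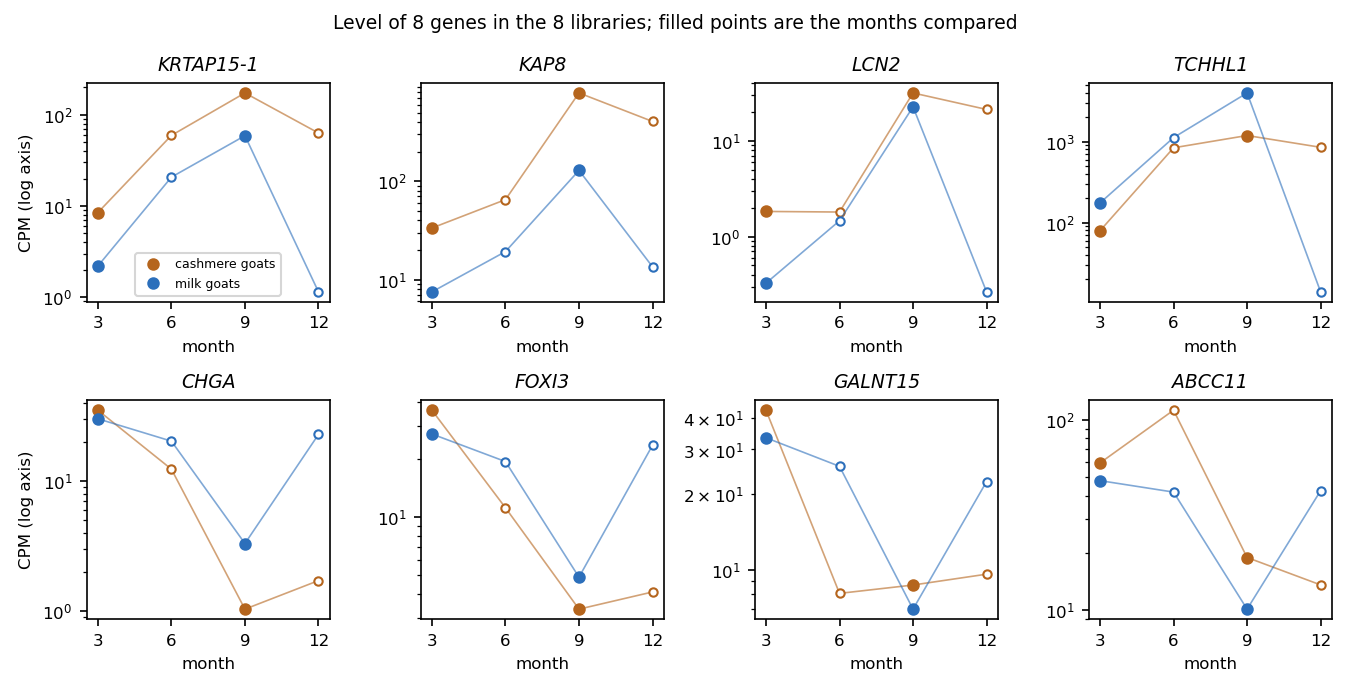
Level in CPM (log axis) against month for 4 of the higher and 4 of the lower genes, 1 library per breed and month; filled points are months 3 and 9 and open points months 6 and 12. The month 9 libraries lie above the month 3 libraries in the upper row and below them in the lower row, and the milk goat library of month 12 lies nearer to month 3 than to month 9 in every panel.

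Several named genes of the higher group were outside the hair lists. LCN2, the iron-carrier-binding protein lipocalin 2 of innate defence, had 16 and 277 reads in cashmere goats and 4 and 247 reads in milk goats, which was 1.83 and 31.7 CPM and 0.326 and 22.7 CPM. The counting intervals of its log2 ratios were 3.39 to 4.94 and 4.75 to 8.01, and its edgeR adjusted p was 0.117 over 8 libraries and 0.000869 over 4 (1.45e-14 to 0.565 over the alternatives). LCN2 was 1 of 2 genes at least 2-fold higher in both breeds among 8 tested innate defence genes (3.22% of all genes were). The other was LYG2, a goose-type lysozyme, with ratios of 1.96 and 2.90. ALDH1A2, which makes retinoic acid, was at 2.29 and 22.2 CPM in cashmere goats and at 0.733 and 8.73 CPM in milk goats. FABP7, a fatty acid binding protein, was at 8.59 and 43.9 CPM and at 4.32 and 55.3 CPM. AQP5, the water channel of glands, was at 2.75 and 15.2 CPM and at 2.77 and 14.6 CPM. Of 8 tested sweat gland markers, AQP5 was the only one at least 2-fold higher in both breeds (3.22% of all genes were). FOXA1, a gland transcription factor, was the only one at least 2-fold lower in both (2.45% of all genes), with ratios of -1.54 and -1.76.

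PRSS27, a serine protease of epithelia, was at 5.95 and 34.7 CPM in cashmere goats and at 0.489 and 9.10 CPM in milk goats. ATP6V0A4, a subunit of the vacuolar proton pump, was at 4.12 and 22.7 CPM and at 1.79 and 12.3 CPM. OTOP2, a proton channel, had ratios of 2.09 and 3.23, and HSD17B14, a steroid dehydrogenase, of 2.03 and 2.24. TPBGL had ratios of 2.14 and 3.57, and SAMD5 of 2.08 and 2.18. Epidermal differentiation genes were mixed. Of 19 tested, 10 were higher in both breeds by any amount and 4 lower (35.8% and 35.1% of all genes). At least 2-fold higher in both breeds were 3 of them (3.22% of all genes). The list's medians were 0.12 and 0.34. The 3 were CDSN, KLK7 and IVL, a corneodesmosome protein, the protease that degrades it, and involucrin of the cornified envelope. IVL was at 363 and 890 CPM in cashmere goats and at 109 and 2438 CPM in milk goats. The keratin KRT6A, which marks the companion layer and outer root sheath, was at 415 and 1199.77 CPM and at 152 and 1044 CPM.

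CHGA was at 35.4 CPM at month 3 and 1.03 CPM at month 9 in cashmere goats, and at 30.4 and 3.31 CPM in milk goats. These levels were 28.9-fold and 8.72-fold lower at month 9, resting on 9 and 36 reads. Its log2 fold change was -4.20 ± 0.85 (SE) over 8 libraries with an edgeR adjusted p of 0.108, and -3.93 ± 0.40 over 4 libraries with an adjusted p of 0.00204 (2.81e-12 to 0.565 over the alternatives). CHGA was the only 1 of 14 tested neuroendocrine and neuronal markers at least 2-fold lower in both breeds (2.45% of all genes were). KRT18 was also called lower in the 4-library fit (4.74% of all genes were), with ratios of -1.57 and -0.70. Of the 14 markers, 6 had ratios above 0 in both breeds (35.8% of all genes did) and 5 below 0 in both (35.1%). Their medians were 0.26 in cashmere goats and -0.04 in milk goats. FOXI3 was at 36.1 and 3.32 CPM in cashmere goats and at 27.1 and 4.87 CPM in milk goats, 10.3-fold and 5.39-fold lower. Its edgeR adjusted p was 0.108 over 8 libraries and 0.00204 over 4 (5.35e-09 to 0.565 over the alternatives).

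Further named genes of the lower group follow. GALNT15, an enzyme that starts O-linked glycan chains, was at 42.9 and 8.71 CPM in cashmere goats and at 33.4 and 6.99 CPM in milk goats. ABCC11, the transporter of apocrine glands, was at 59.4 and 18.9 CPM and at 48.0 and 10.1 CPM. SCN9A, the sodium channel of pain-sensing neurons, was at 13.0 and 1.95 CPM and at 25.2 and 6.71 CPM. KCNJ8, a potassium channel subunit of pericytes and vascular muscle, was at 11.1 and 3.44 CPM and at 8.47 and 1.84 CPM. KCNE4, an accessory subunit of potassium channels, had ratios of -2.39 and -1.89, and the phospholipase C gene PLCE1 of -1.997 and -2.03. CLMN had ratios of -1.996 and -2.53, RGS7BP of -1.87 and -1.78, ANKRD33B of -1.73 and -1.95, DENND2A of -1.91 and -1.64, and NAV3 of -1.60 and -1.74. Each of the 15 lower and 15 higher genes chosen by the naming rule was called in the 4-library fit. None changed sign under the alternatives run. The rule ranked genes by ratios of the same 4 libraries, so these calls and signs are no independent support. The 8-library fit called none of these genes.

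Markers of blood and lymph vessels were lower at month 9 as a list. All 19 tested endothelial markers were lower in both breeds (35.1% of all genes were). The 4-library fit called 15 lower (4.74% of all genes), and 5 were at least 2-fold lower in both breeds (2.45%). Their medians were -0.95 in cashmere goats and -1.46 in milk goats, and their summed level was 965 CPM at month 3 and 483 CPM at month 9 in cashmere goats, and 1186 and 419 CPM in milk goats. CLDN5, the endothelial tight junction protein, was at 33.3 and 10.1 CPM and at 19.7 and 5.98 CPM. PECAM1, the endothelial adhesion molecule CD31, was at 220.5 and 88.9 CPM and at 231 and 75.0 CPM. KDR, the main receptor of vascular growth factor A, was at 97.3 and 39.5 CPM in cashmere goats and at 141 and 43.5 CPM in milk goats. TIE1 and MMRN2, both vascular, had ratios of -1.43 and -1.39, and of -1.31 and -1.47. The lymphatic genes LYVE1 and PROX1 were called lower too, with ratios of -0.81 and -1.996, and of -0.98 and -1.65. No endothelial marker was at 0 in any of the 4 libraries. The part of this difference in the other results was not tested.

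**Figure D4:**
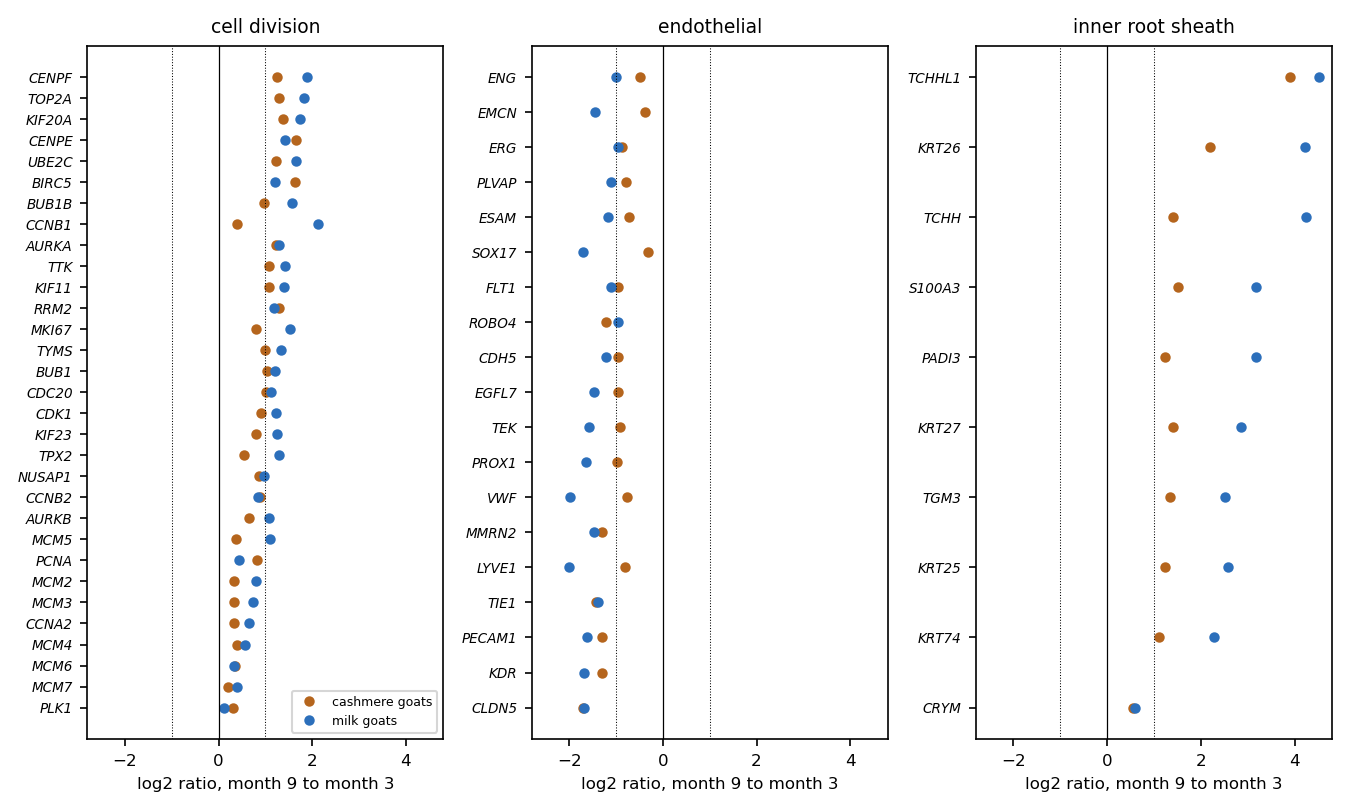
Log2 ratio of month 9 to month 3 (x axis) for the tested genes of the cell division, endothelial and inner root sheath lists, with cashmere goats in brown and milk goats in blue; dotted lines mark 2-fold. All 31 cell division genes and all 10 inner root sheath genes lie above 0 in both breeds, and all 19 endothelial genes lie below 0 in both.

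Schwann cell genes were mixed. Their medians were -0.62 and -0.64. Of 13 tested, 4 were at least 2-fold lower in both breeds (2.45% of all genes) and 5 were called lower (4.74%). They include the neurotrophin receptor NGFR and SOX10, a neural crest factor that melanocytes also express. NGFR was at 22.0 and 8.13 CPM in cashmere goats and at 23.7 and 7.36 CPM in milk goats. SOX10 had ratios of -1.37 and -1.33. In contrast, NCAM1, GFRA3 and S100B had ratios above 0 in both breeds. The pigment cell list, which also holds SOX10, had medians of -0.02 and 0.07.

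Of the dermis, 16 of 20 collagen and matrix genes were lower in both breeds (35.1% of all genes were). Their medians were -0.41 and -0.88. The 4-library fit called 2 lower (4.74% of all genes), and 0 were at least 2-fold lower in both breeds (2.45%). COL1A1 was at 3687 and 1994 CPM in cashmere goats and at 9930.4 and 5147 CPM in milk goats. The 15 smooth muscle genes had medians of -0.68 and -0.55, with 2 called lower. Of 23 dermal papilla genes, 4 were called lower and 2 higher (4.74% and 5.62% of all genes). In both breeds, 1 was at least 2-fold higher and 2 at least 2-fold lower (3.22% and 2.45% of all genes). Their medians were -0.20 and -0.66. Their summed level at months 3 and 9 was 1050 and 1079 CPM in cashmere goats, and 1103 and 1317 CPM in milk goats. HGF, a growth factor secreted by the papilla, had log2 ratios of -1.79 and -2.86, and FGF7 of -1.03 and -0.94. BMP6, a bone morphogenetic protein linked to follicle rest, had ratios of -1.12 and -1.08 and was not called in the 4-library fit. The Wnt inhibitors SFRP1 and SFRP2 had positive ratios, 0.82 and 1.74, and 1.25 and 1.90. The other Wnt inhibitors that were called were NOTUM, with ratios of 0.92 and 3.59, and FRZB, with -0.89 and -1.14.

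Among 18 hormone and photoperiod genes, 3 were called higher and 6 lower (5.62% and 4.74% of all genes). ESR1, the estrogen receptor, was at 17.9 and 8.94 CPM in cashmere goats and at 42.3 and 8.92 CPM in milk goats. VDR, the vitamin D receptor, which the follicle needs for its cycle, was at 187 and 427 CPM and at 137 and 391.9 CPM. The thyroid hormone deiodinases DIO3 and DIO2 had ratios of 1.24 and 2.93, and of 0.85 and 0.64. Of 19 circadian clock genes, 12 were lower in both breeds (35.1% of all genes were), with medians of -0.29 and -0.87. Called lower were 2 of the 19, CLOCK among them (4.74% of all genes). In both breeds, 0 reached 2-fold (3.22% of all genes were at least 2-fold higher and 2.45% lower). A list of 20 genes of bone morphogenetic protein and fibroblast growth factor signalling, named for the resting phase, was mixed. Ratios were above 0 in both breeds for 10 and below 0 in both for 6 (35.8% and 35.1% of all genes). The 4-library fit called 3 higher and 0 lower. BAMBI and FGF21 were at least 2-fold higher in both breeds (3.22% of all genes were). BMP6, which was not called, was at least 2-fold lower in both (2.45% of all genes).

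Immune cell markers gave 0 calls in the 4-library fit among 14 macrophage and dendritic cell, 11 T and natural killer cell and 3 B and plasma cell genes. Of all genes, that fit called 5.62% higher and 4.74% lower. At these shares, the shorter lists of this paragraph can have few or 0 calls. The counts of all its lists are descriptions only. The median was 0.31 in cashmere goats and -0.90 in milk goats for the macrophage list, and -0.44 and -1.21 for the T and natural killer cell list; the differences between the breeds' medians were not tested. Of 27 immediate early genes, which respond to handling as well as to growth signals, 5 were called higher; FOS was at 12.5 and 35.7 CPM and at 16.6 and 38.6 CPM, and DUSP5 at 26.1 and 73.5 CPM and at 9.85 and 62.1 CPM. The 16 heat shock genes gave 0 calls, with medians of 0.25 and 0.59, and the 88 ribosomal protein genes 2 lower calls, with medians of 0.11 and 0.16. Of 17 sebaceous genes 2 were called higher and 2 lower, of 10 fat cell genes 1 lower, of 10 pigment cell genes 1 each way, and of 9 skeletal muscle genes 1 higher. Of 11 listed red blood cell genes, only SLC4A1 was tested, at 2.06 and 8.36 CPM and at 0.163 and 6.44 CPM. Its level in milk goats at month 3 lay below the 3-read floor of that library, 0.244 CPM. The 16 stem cell and outer root sheath genes had medians of 0.25 and 0.30, with KRT6A called higher and LGR6 lower.

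**Figure D5:**
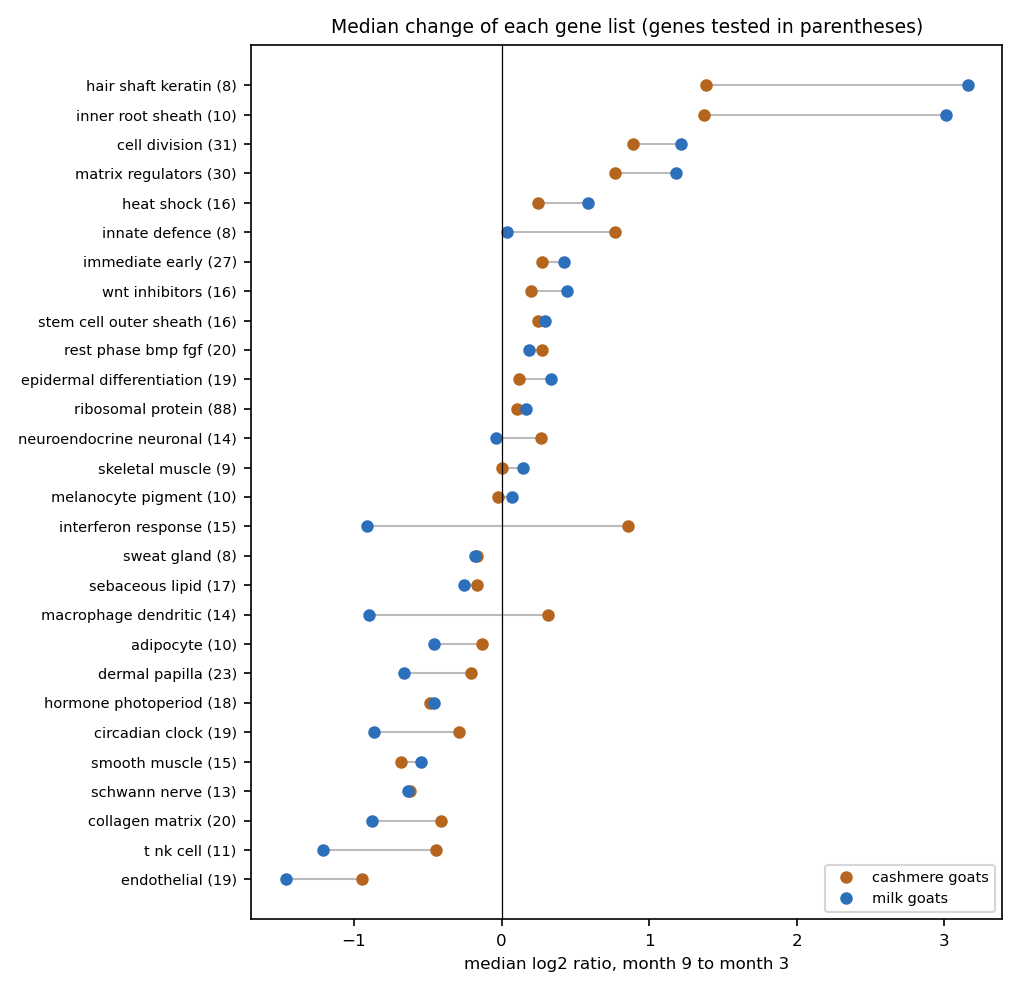
Median log2 ratio of month 9 to month 3 (x axis) in cashmere goats (brown) and milk goats (blue) for the 28 gene lists with at least 5 tested genes, ordered by the mean of both; the number of genes is in parentheses. Hair shaft keratins and inner root sheath genes are at the top, endothelial genes at the bottom, and the interferon response and macrophage lists lie on opposite sides of 0.

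The breeds were compared by testing the difference between their month 9 to month 3 changes. Over the 8 libraries, edgeR called 0 of 14085 genes (0%) for this difference; 386 had an unadjusted p under 0.05 and the smallest adjusted p was 0.999. With months 3, 6 and 9 only, it called 93. The larger hair gene ratios of the milk goats are therefore given as values, and a larger change in that breed was not shown by the test over the 8 libraries.

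The libraries of months 6 and 12 take no part in the ratios above and show how the same genes stood elsewhere in the series. From month 6 to month 12, the 453 higher genes had a median log2 ratio of -1.51 in milk goats and 0.18 in cashmere goats. In milk goats, 306 of them (67.5%) were at least 2-fold lower at month 12, against 6.96% of all genes. In cashmere goats, 9.05% of them were at least 2-fold lower and 8.17% higher, against 4.21% and 1.71% of all genes. KRTAP15-1 was at 20.7 and 1.15 CPM at months 6 and 12 in milk goats, and at 59.4 and 63.1 CPM in cashmere goats. TCHHL1 was at 1120.17 and 13.92 CPM in milk goats and at 838 and 850.2 CPM in cashmere goats. For the 345 lower genes, the median was 0.18 in milk goats and -0.50 in cashmere goats. In cashmere goats, 22.3% of them were at least 2-fold lower at month 12 and 2.61% higher. In milk goats, 4.35% of them were at least 2-fold lower and 8.12% higher, against 6.96% and 4.52% of all genes. CHGA was at 20.4 and 23.0 CPM at months 6 and 12 in milk goats, and at 12.4 and 1.71 CPM in cashmere goats. FOXI3 was at 19.5 and 23.7 CPM in milk goats and at 11.2 and 4.08 CPM in cashmere goats.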

How the data were processed

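Polyadenylated RNA of goat skin was sequenced, per the labels' protocols, as directional paired-end libraries, 1 per breed and month. Per the submitters' processing notes, Bowtie2 was used; the sources used here give neither its version and role nor the counting tool and the genome build, and coordinates are therefore left out. The authors deposited raw read counts per gene without normalization in 2 count tables (18815 and 20780 genes), and FPKM, which the authors had normalized to gene length and mapped reads, for the genes of the first. The columns of the first table name 1 breed with the word milk and the other with a transliterated word, which was taken as the cashmere goats, the other breed of the labels.

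The first count table was filtered with filterByExpr on breed (14085 genes left), scaled by TMM and tested with edgeR 4.0.16 in R 4.3.3: quasi-likelihood F tests of month 9 against month 3 in a model of month and breed over 8 libraries (3 residual degrees of freedom), Benjamini-Hochberg adjustment over all genes, threshold 0.05. One interaction coefficient was tested for the breed difference. Standard errors of fold changes were derived from their F statistics, and 95% counting intervals of ratios from exact binomial intervals. Alternatives were the 4 libraries alone, DESeq2 1.42.0, limma 3.58.1 on log2-transformed FPKM (pseudocounts 1 and 0.1), other scalings, filters, thresholds and prior counts, and leaving out libraries. The tests were tested on simulated data.

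Genes were named by a rule: symbols not starting with LOC, ranked by the smaller of the breeds' ratios, with at least 5 CPM on average and at least 20 reads in each library of the higher month, 15 in each direction; for lists, up to 4 members at least 2-fold changed in both breeds; and KRTAP15-1, LCN2, CHGA and FOXI3. Some genes within the rule are not reported here. Further list members were named after their values were seen. The members and the lists were chosen with earlier results of these data known. Of the symbols, 18805 were found in RefSeq ARS1.2, which was used only for gene order.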

Additional observations from a re-analysis of the deposited data

Results flagged for a closer look

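The interferon response list lay on opposite sides of 0 in the breeds, with a median log2 ratio of month 9 to month 3 of 0.86 in cashmere goats and -0.91 in milk goats over 15 genes. The difference between these medians was not tested. MX1, an antiviral effector, was at 13.2 and 24.1 CPM in cashmere goats and at 34.5 and 18.3 CPM in milk goats. RSAD2 had log2 ratios of 1.11 and -1.88, and IFI6 of 1.22 and 0.10.

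Another 4 genes were singled out because their ratios were at least 2-fold in opposite directions, with at least 100 reads at month 3 or 9 in each breed. The lowest counts of COL6A5 and C1QTNF3 in the 4 libraries were 71 and 59 reads. PENK, the precursor of enkephalin peptides, had log2 ratios of -1.54 in cashmere goats and 3.13 in milk goats, with 390 and 133 reads and 77 and 612 reads. SLC22A17, a receptor for lipocalin 2, had ratios of -1.01 and 1.11. The collagen gene COL6A5 had ratios of 1.09 and -2.45, and C1QTNF3, a secreted C1q-like protein, of 1.06 and -1.11. None of the 4 passed edgeR's interaction test over the 8 libraries, which called 0 of 14085 genes.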

How the results depend on the processing

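The count of called genes depended most on the libraries in the fit. Against 0 higher and 0 lower genes over 8 libraries, edgeR on the 4 libraries called 792 and 668, DESeq2 638 and 469 on 8 libraries and 493 and 307 on 4, and limma on log2(FPKM + 1) of the 4 libraries 534 and 1216. Leaving out 1 library in turn gave 0 to 1128 higher and 0 to 926 lower genes; counts above 1 came only from leaving out either month 12 library, and leaving out the cashmere goat library of month 9 gave 1 higher gene. Without both month 12 libraries the counts were 1127 and 915. The other settings (RLE, library totals, TMM without hair genes, no or a stricter filter, no breed term, limma on 8 libraries, no month 6) gave 0 and 0. No further paired analysis was possible because each breed has 1 library per month, so breed itself was the pairing term.

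In the second table, edgeR over 8 libraries called 0 and 0 genes, without a filter 16 and 6, on the 4 libraries 1036 and 906, and with 1 library left out 0 to 949 and 0 to 745, the high counts again without either month 12 library (936 and 745 without that of the cashmere goats, 949 and 726 without that of the milk goats). The breed difference was called for 93 genes with months 3, 6 and 9 only. Genes changed at least 2-fold in both breeds numbered 453 higher and 345 lower; with library totals they were 296 and 771, with FPKM and a pseudocount of 1 they were 202 and 120, at 1.5-fold 1119 and 1235, and at 3-fold 140 and 36.

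List medians, as the mean of both breeds relative to all genes, shifted with FPKM by more than the SD between the breeds, which is small for several lists: cell division from 1.06 to 0.76, stem cell and outer sheath 0.27 to 0.19, sebaceous -0.21 to -0.26, T and natural killer cell -0.82 to -0.21, Schwann cell -0.63 to -0.56, sweat gland -0.17 to -0.088, hormone -0.47 to -0.44, resting phase signals 0.23 to 0.15 and ribosomal proteins 0.14 to 0.0524. With library totals, Schwann cell went from -0.627 to -0.633 and sweat gland from -0.170 to -0.176, beyond an SD close to 0. Dermal papilla (-0.43 to -0.14) and adipocyte (-0.29 to -0.09) shifted with FPKM within their larger SD. None of these means and none of the 30 named genes reversed. In a single breed, relative medians near 0 took the opposite sign with FPKM: sweat gland (0.0117), pigment cell (0.00981) and skeletal muscle (0.0235) in cashmere goats, and innate defence (-0.0093) and neuroendocrine (0.146) in milk goats; skeletal muscle did so with library totals too (0.0109). The cause of these differences was not tested. Depth limits low genes: 3 reads stand for 0.231 to 0.395 CPM.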

Other observations

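The families below were chosen after values had been seen, so their counts are descriptions. Of all 14085 genes, 3.22% were at least 2-fold higher and 2.45% at least 2-fold lower in both breeds, 35.8% were higher in both by any amount, and the 4-library fit called 5.62% higher and 4.74% lower. Of 19 genes of methionine, cysteine and glutathione metabolism, 6 were at least 2-fold higher at month 9 in both breeds and 9 were called higher in the 4-library fit, with medians of 0.63 in cashmere goats and 1.05 in milk goats. CTH, which makes cysteine from cystathionine, was at 12.8 and 28.6 CPM in cashmere goats at months 3 and 9, and at 1.63 and 13.4 CPM in milk goats. AHCY, which clears S-adenosylhomocysteine, was at 583 and 1184 CPM and at 398 and 1766 CPM. TXNRD1 and GSR, reductases of the thioredoxin and glutathione systems, had log2 ratios of 1.15 and 1.75, and of 1.82 and 1.05. MTR, methionine synthase, had ratios of -0.76 and -0.75, and GCLM of 0.19 and -0.18.

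Of 11 connexins, the subunits of gap junctions, 3 were at least 2-fold higher in both breeds: GJA1, GJB2 and GJB6, with GJB2 at 237 and 605 CPM in cashmere goats and at 74.1 and 493 CPM in milk goats. The family's medians were 0.06 and -0.01, and GJA4, a connexin of arteries, had ratios of -0.95 and -2.18. All 10 tested kallikrein proteases had ratios above 0 in both breeds, and KLK6, KLK7 and KLK10 were at least 2-fold higher in both. Of 22 proteases and related proteins of the ADAMTS family, 5 were at least 2-fold lower in both breeds and 1 higher. The lower ones were ADAMTS5, ADAMTS9, ADAMTS10, ADAMTS15 and ADAMTSL4, and the higher one was ADAMTS18, with ratios of 1.30 and 1.23.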
